A study of Mus musculus with 6 samples.

Results

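The genes described here are the cadherins, transcription factors and cytoskeletal and epithelial markers by which the epithelial-mesenchymal transition (EMT) is usually read: Cdh1, Cdh2, Cdh5, Epcam, Vim, Snai1, Snai2, Twist1, Zeb1 and Zeb2. These 10 genes were taken by symbol from a table of 56691 genes, in which each symbol stood on 1 row. RNA-seq was done on KVTR cells, mouse cells that according to the labels are primary and derive from clear cell renal carcinoma, a kidney cancer of tubule epithelium. One group was treated with dopamine, a catecholamine transmitter, and the other is labelled blank, with 3 count columns in each. All libraries come from KVTR cells. The labels give no strain, genotype, dose or duration and do not say what the blank cultures received. The count columns carry the numbers 1, 2 and 3 for dopamine and 2 and 3 for blank, and the remaining blank column carries no number and is called blank U.

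In the EMT, epithelial cells loosen their contacts and take on a migratory, mesenchymal form. A hallmark is the cadherin switch, in which E-cadherin (Cdh1), the adhesion molecule of epithelial adherens junctions, is lost and N-cadherin (Cdh2) is gained, while the intermediate filament protein vimentin (Vim) accumulates. The zinc finger factors Snai1, Snai2, Zeb1 and Zeb2 bind E-box sequences in the Cdh1 promoter and repress it, and the helix-loop-helix factor Twist1 acts in the same programme. Tubule epithelium of the kidney has Cdh1, and many of its cells also have Cdh2.

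Libraries held 16771499 to 23375622 counts, so that a gene with no count could still be present at up to 0.128 to 0.179 CPM (counts scaled to a fixed library size; 3 counts of the unscaled total, a limit for counting error only). Of the 15420 genes that passed a filter on low counts, edgeR's quasi-likelihood test called 0 at a Benjamini-Hochberg adjusted p of 0.05. At an unadjusted p under 0.05 there were 454 genes (2.94% of those tested), and DESeq2 called 20 genes. Because nothing in the labels ties the libraries to separate cultures, p-values measure only how these libraries differ, which may be technical. Of 15 renal tubule markers, 6 passed the filter and 8 stayed under 1 CPM in every library, among them the kidney-specific cadherin Cdh16, and Aqp2 had no count in any library. Lrp2 (87.1 to 384 CPM), Aqp1 (14.5 to 115.9 CPM) and Cubn (3.45 to 8.14 CPM), of proximal tubule and other tissues, were detected. By contrast, 10 of 10 astrocyte markers passed the filter and 0 stayed under 1 CPM in every library. Their levels differed widely. Gfap, the intermediate filament of astrocytes, ran from 32.4 to 1629.9 CPM, and S100b from 0.115 to 2.43 CPM. In bulk RNA, fewer cells of a type and less RNA per cell cannot be told apart.

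Among the members, mesenchymal markers were high and epithelial markers low in both groups. Vim and Cdh2 were abundant, Cdh1 and Epcam were low, and Twist1, Zeb1, Zeb2, Snai1 and Snai2 were all detected in each of the 6 libraries. Not every gene of the wider lists followed this order, as for epithelial Spint2 (31.8 to 86.1 CPM) and mesenchymal Postn (1.03 to 6.15 CPM). None of the 9 members that passed the filter (Epcam did not) was called between dopamine and blank, none had an unadjusted edgeR p under 0.05, and in all 10 the dopamine and blank values overlapped. Across all genes tested, the 3 dopamine values lay all above the 3 blank values for 4.0% and all below them for 4.47%. Most of the extreme values were in dopamine 1 and blank U.

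E-cadherin transcript was scarce. Cdh1 (chr8:107329983-107396878, plus strand; positions from the deposited table, GRCm39) had 40, 19 and 14 counts in dopamine 1, 2 and 3, against 12, 28 and 5 counts in blank 2, 3 and U. Scaled to library size, these were 2.29, 0.840 and 0.637 CPM in dopamine and 0.694, 1.50 and 0.240 CPM in blank libraries. Dopamine 1 was highest and blank U lowest, and the other dopamine libraries lay inside the blank range. Exact (Clopper-Pearson) 95% intervals for counting error ran from 1.64 to 3.12 CPM in dopamine 1 and from 0.0778 to 0.559 CPM in blank U, so those libraries differed by more than counting error. The log2 fold change, dopamine over blank, was 0.62 ± 0.79 (SE; 95% interval -1.25 to 2.50; edgeR adjusted p = 0.9997), and it was -0.13 ± 0.80 without dopamine 1.

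N-cadherin transcript was abundant and even. Cdh2 (chr18:16721934-16942303, minus strand) had 734, 738 and 702 CPM in dopamine 1, 2 and 3, against 801, 707 and 552 CPM in blank 2, 3 and U. The dopamine values lay close together and inside the wider blank range. Between the groups, the log2 fold change was 0.08 ± 0.24 (SE; 95% interval -0.49 to 0.65; edgeR adjusted p = 0.9997), and its sign turned without blank U (-0.055). Per kilobase of exon (FPKM), Cdh2 exceeded Cdh1 by 182, 498 and 625 times in dopamine 1, 2 and 3, and by 654, 268 and 1306 times in blank 2, 3 and U. The ratio was lowest in dopamine 1 and highest in blank U, and it rests on as few as 5 counts of Cdh1.

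Epcam, an adhesion molecule of epithelial cells and many carcinomas, had a single high library. It had 99, 12 and 8 counts in dopamine 1, 2 and 3, against 4, 18 and 10 counts in blank 2, 3 and U. These were 5.67, 0.530 and 0.364 CPM in dopamine and 0.231, 0.962 and 0.479 CPM in blank libraries. Only dopamine 1 was above 1 CPM, and blank 3 was above dopamine 2 and 3. Epcam did not pass the filter. In the fit with no filter its log2 fold change was 1.95 ± 0.95 (SE; edgeR adjusted p = 0.90). In the fit without dopamine 1, where it passed the usual filter, it was -0.32 ± 0.74. The gene lies at chr17:87943407-87958557 on the plus strand.

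Promoter windows of 300 bases, from 250 bases before to 50 after the start, were taken from RefSeq for 5 members. The other members were not searched, which does not mean that no window exists for them. The windows taken are on build GRCm38.p6, which differs from the build of the gene positions. They were searched for CAGGTG or its reverse complement CACCTG, the E-box that Snai and Zeb factors bind. It is one of the sequences of the general E-box CANNTG. Of 32851 windows, 20.2% held CAGGTG or CACCTG and 72.3% held CANNTG. The Epcam window had 2 matches, the first starting at position -187 from the start, and the Snai1 window had 1, at -126. Windows of Twist1 and Vim and the 4 windows of Zeb2 had none. Windows are printed for 3 members: the low epithelial marker, the Snai factor with a match and the most abundant member, with CAGGTG and CACCTG in capitals. A match is a description of these letters and not a measured site, and lack of a match covers this window alone. The windows lie at chr17:87635729-87636028 (Epcam), chr2:167537945-167538244 (Snai1) and chr2:13574061-13574360 (Vim), all on the plus strand, and read 5′ to 3′:
Epcam: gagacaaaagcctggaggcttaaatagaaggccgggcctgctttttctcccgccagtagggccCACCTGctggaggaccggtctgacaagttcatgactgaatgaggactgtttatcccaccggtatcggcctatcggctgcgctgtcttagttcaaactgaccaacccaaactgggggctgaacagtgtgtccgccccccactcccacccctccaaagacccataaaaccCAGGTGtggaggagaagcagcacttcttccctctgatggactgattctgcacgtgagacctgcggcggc
Snai1: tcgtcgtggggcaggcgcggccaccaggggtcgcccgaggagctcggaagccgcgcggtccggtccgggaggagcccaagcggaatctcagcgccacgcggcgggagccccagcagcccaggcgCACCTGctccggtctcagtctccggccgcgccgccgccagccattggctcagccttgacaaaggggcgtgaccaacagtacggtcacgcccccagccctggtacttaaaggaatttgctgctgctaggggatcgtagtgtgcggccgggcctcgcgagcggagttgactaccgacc
Vim: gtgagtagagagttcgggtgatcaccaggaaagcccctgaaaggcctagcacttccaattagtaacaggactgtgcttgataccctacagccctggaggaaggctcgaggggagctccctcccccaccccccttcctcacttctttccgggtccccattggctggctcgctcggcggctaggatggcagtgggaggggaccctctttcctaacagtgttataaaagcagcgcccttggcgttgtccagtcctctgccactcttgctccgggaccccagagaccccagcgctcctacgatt
The Snai1 window was also rich in CpG, with 34 CpG against a median of 7 over all windows (92.3% had fewer), and the Epcam and Vim windows had 11 each. The Vim and Twist1 windows each held 1 match to TATAAA, the letters of a TATA box, counted on both strands. Of all windows, 13.6% held a match, and its place in the window was not considered.

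Cdh5 (VE-cadherin), the adhesion molecule of endothelial junctions, varied widely between libraries. Cdh5 (chr8:104828257-104871143, plus strand) had 5.45, 35.0 and 52.4 CPM in dopamine 1, 2 and 3, against 82.7, 37.8 and 206 CPM in blank 2, 3 and U. Dopamine 1 was far below and blank U far above the others, and blank 3 lay between dopamine 2 and dopamine 3. It had a log2 fold change of -1.81 ± 0.88 (SE; 95% interval -3.88 to 0.26; edgeR unadjusted p = 0.0771, adjusted p = 0.9997). The fold change was -1.32 without dopamine 1 and -0.96 without blank U, and DESeq2 gave an unadjusted p of 0.0235 (adjusted p = 0.9999).

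Other endothelial genes did not share the level of Cdh5. Of 10 endothelial markers, 6 stayed under 1 CPM in every library, namely Pecam1 (0.174 to 0.767 CPM), Tie1, Cldn5, Emcn, Erg and Vwf. The summed level of the list was 38.2 to 49.0 CPM in dopamine libraries and 34.6 to 84.7 CPM in blank libraries, highest in blank U. There, most of it was Esam, a junction adhesion molecule, with 21.7, 20.1 and 19.6 CPM in dopamine 1, 2 and 3, against 17.6, 24.6 and 77.9 CPM in blank 2, 3 and U. Egfl7, a secreted endothelial factor, was lowest in that library (2.40 CPM). Tek, the angiopoietin receptor, had 0.459 to 0.707 CPM in dopamine libraries and 0.926 to 2.99 CPM in blank libraries (log2 fold change -1.44 ± 0.61; edgeR unadjusted p = 0.0496, adjusted p = 0.9997), on 131 counts in all. Such a separation below blank was held by 4.47% of all genes tested.

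Vimentin was among the most abundant transcripts of these cells. Vim (chr2:13578738-13587637, plus strand) had 5300.2, 5156 and 8239 CPM in dopamine 1, 2 and 3, against 6271, 3749.5 and 4835 CPM in blank 2, 3 and U. Dopamine 3 was highest and blank 3 lowest, and blank 2 lay above dopamine 1 and 2. Vim took 0.386% to 0.776% of all counts and ranked between place 13 and place 22 of all genes by FPKM. Its log2 fold change was 0.33 ± 0.38 (SE; 95% interval -0.58 to 1.24; edgeR adjusted p = 0.9997).

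Of 6 genes of intermediate filaments and their linkers, all passed the filter, 3 had a positive and 3 a negative log2 fold change, and none had an unadjusted p under 0.05. Their median was 0.01, and -0.40 without dopamine 1. Nes (nestin), which assembles with vimentin, had 1135 ± 145 CPM in dopamine and 865 ± 154 CPM in blank libraries (SD, n = 3 each; log2 fold change 0.39 ± 0.26). Gfap, which can also assemble with vimentin, had 102, 1219 and 1316 CPM in dopamine 1, 2 and 3, against 1629.9, 815 and 32.4 CPM in blank 2, 3 and U. It was lowest in dopamine 1 and blank U, which was not the pattern of Vim.

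Snai2 (Slug) varied more between libraries than any other transcription factor among the members. Snai2 (chr16:14523716-14527249, plus strand) had 11, 216 and 221 counts in dopamine 1, 2 and 3, against 307, 362 and 185 counts in blank 2, 3 and U. These were 0.631, 9.54 and 10.1 CPM in dopamine and 17.8, 19.3 and 8.87 CPM in blank libraries. Dopamine 1 was far below all others, and blank U lay just below dopamine 2 and 3. Its log2 fold change was -1.18 ± 0.85 (SE; 95% interval -3.20 to 0.84; edgeR adjusted p = 0.9997), and -0.65 ± 0.39 without dopamine 1.

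Snai1 (Snail; chr2:167380115-167384734, plus strand) had 2.41, 5.30 and 10.4 CPM in dopamine 1, 2 and 3, against 5.55, 6.25 and 14.8 CPM in blank 2, 3 and U. As for Cdh5, dopamine 1 was lowest and blank U highest. The log2 fold change was -0.55 ± 0.62 (SE; edgeR adjusted p = 0.9997), and its sign turned without blank U (0.037). Per length, Snai2 stood at 0.210, 1.44 and 0.774 times Snai1 in dopamine 1, 2 and 3, and at 2.56, 2.48 and 0.482 times in blank 2, 3 and U. Which of this pair of repressors was higher thus differed between libraries of the same group.

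Twist1 (chr12:34007670-34009828, plus strand), which in development acts in neural crest and mesoderm, had 31.1, 40.3 and 34.9 CPM in dopamine 1, 2 and 3, against 36.2, 29.9 and 21.4 CPM in blank 2, 3 and U. Dopamine 2 was highest, blank U lowest, and blank 2 lay above dopamine 1 and 3. Its log2 fold change was 0.28 ± 0.25 (SE; 95% interval -0.30 to 0.87; edgeR adjusted p = 0.9997).

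Zeb1 and Zeb2 were the steadier repressors. Zeb1 (chr18:5591860-5775467, plus strand) had 157, 119 and 83.2 CPM in dopamine 1, 2 and 3, against 122, 140.4 and 142 CPM in blank 2, 3 and U. The blank libraries were close together and the dopamine libraries spread on both sides of them. For Zeb1 the log2 fold change was -0.17 ± 0.26 (SE; 95% interval -0.78 to 0.45; edgeR adjusted p = 0.9997), and its sign turned without dopamine 3 (0.039).

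Zeb2 (chr2:44873644-45007407, minus strand) had 90.4, 75.8 and 60.6 CPM in dopamine 1, 2 and 3, against 104, 84.3 and 127 CPM in blank 2, 3 and U. Dopamine 2 and 3 lay below all blank libraries and dopamine 1 lay between blank 3 and blank 2. The log2 fold change was -0.48 ± 0.24 (SE; 95% interval -1.04 to 0.08; edgeR unadjusted p = 0.0835, adjusted p = 0.9997). The antisense gene Zeb2os overlaps it and had 13 to 50 counts a library, against 1333 to 2658 for Zeb2, and the kit does not mark strand. Per length, Zeb1 exceeded Zeb2 by 3.43, 3.10 and 2.70 times in dopamine 1, 2 and 3, and by 2.30, 3.28 and 2.20 times in blank 2, 3 and U.

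**Figure D1:**
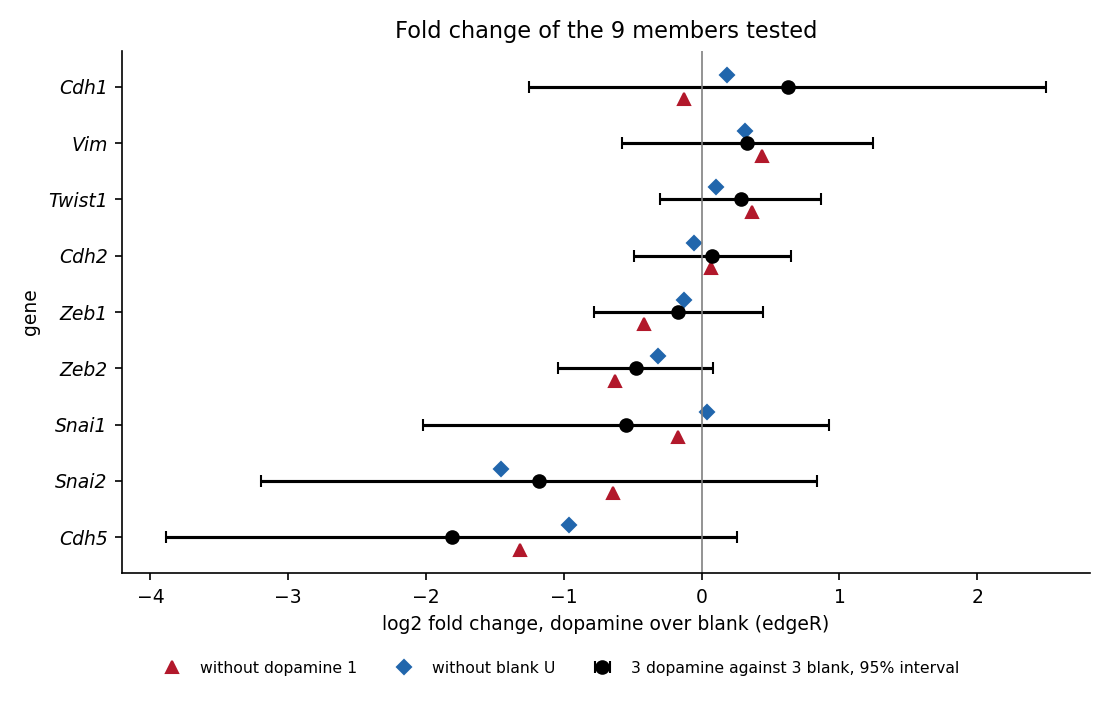
Log2 fold change, dopamine over blank, of the 9 members tested by edgeR (x axis; 1 row a gene), with 95% intervals over 3 libraries a group and with the values without dopamine 1 (triangles) and without blank U (diamonds). Every interval spans 0, from the widest, of Cdh5 (-3.88 to 0.26), to those of Cdh2, Twist1 and Zeb2.

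Of the 9 members tested, 4 had a log2 fold change above 0 and 5 below 0, with a median of -0.17, beside 51.7% above 0 and a median of 0.01 over all genes tested. Without dopamine 1 the split was 3 above and 6 below (median -0.17), without blank U 4 and 5 (median -0.06), and over the 4 libraries numbered 2 and 3 it was 3 and 6 (median -0.38). Of all genes tested, 52.1%, 46.9% and 48.6% were below 0 in these settings, in that order.

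Levels per length set the members in a wide order. Mean FPKM over the 6 libraries was 1179 for Vim, 87.5 for Cdh2, 19.8 for Twist1, 16.6 for Cdh5, 12.4 for Zeb1, 5.46 for Snai2, 4.60 for Snai1, 4.48 for Zeb2, 0.626 for Epcam and 0.226 for Cdh1. Vim stood above Cdh2, Cdh2 above Twist1, Zeb1 above Snai2 and Zeb2 above Epcam in 6 of 6 libraries. Neighbours whose order was not the same in all libraries were Twist1 and Cdh5 (5 of 6 libraries in that order), Cdh5 and Zeb1 (3 of 6), Snai2 and Snai1 (3 of 6), Snai1 and Zeb2 (2 of 6), and Epcam and Cdh1 (5 of 6). The highest library exceeded the lowest by 37.8 times for Cdh5, 30.7 times for Snai2, 24.5 times for Epcam and 9.57 times for Cdh1, but by 1.45 times for Cdh2 and 1.88 to 2.20 times for Twist1, Zeb1, Zeb2 and Vim.

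**Figure D2:**
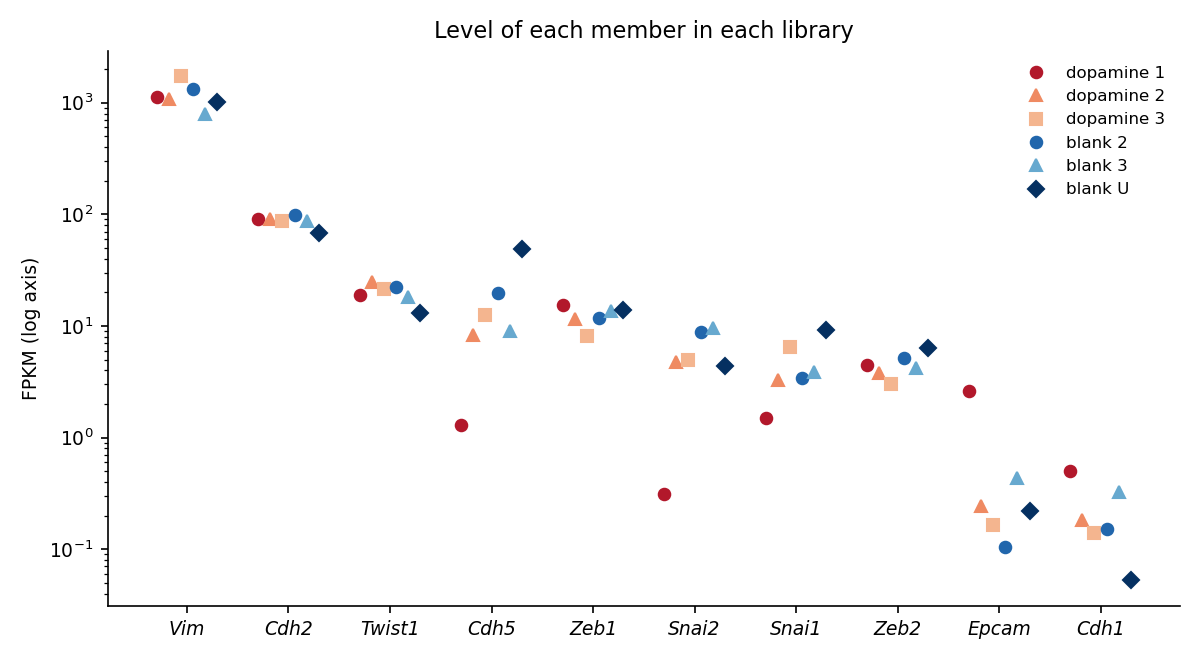
FPKM of each member (log axis) in dopamine 1, 2 and 3 (red and orange) and in blank 2, 3 and U (blue), with genes ordered by mean level and 1 point a library. Points of both groups mix for each gene, and dopamine 1 lies far below the others for Cdh5 and Snai2 and above them for Epcam.

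The extreme values gathered in 2 libraries. Dopamine 1 was highest of the 6 for Cdh1, Epcam and Zeb1 and lowest for Cdh5, Snai1 and Snai2. Blank U was highest for Cdh5, Snai1 and Zeb2 and lowest for Cdh1, Cdh2 and Twist1. The other 4 libraries shared the remaining 4 highest and 4 lowest values. On the scale of log2(CPM + 0.1), dopamine 1 stood at -3.41 from the mean of the 6 libraries for Snai2, -2.97 for Cdh5 and 2.79 for Epcam, whereas Cdh2 stayed within -0.34 to 0.19 in all of them.

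**Figure D3:**
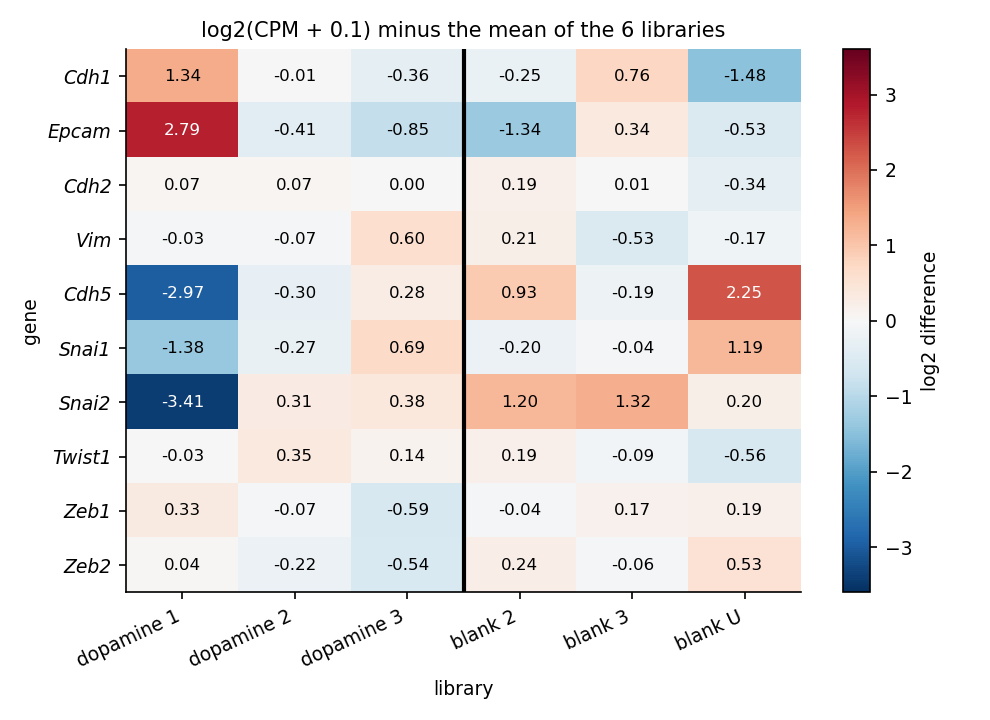
Difference of log2(CPM + 0.1) from the mean of the 6 libraries for each member (rows) in each library (columns; the black line separates dopamine on the left from blank on the right). Red is above and blue below the mean; dopamine 1 has the deepest values, from -3.41 for Snai2 to 2.79 for Epcam, and blank U has 2.25 for Cdh5 and -1.48 for Cdh1.

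Pairs of members moved together over the 6 libraries to differing degrees. As a description over 6 points that share their library and its preparation, Pearson's r of log2 CPM was 0.90 for Cdh5 and Snai1, 0.88 for Cdh2 and Twist1, 0.71 for Zeb1 and Zeb2, 0.63 for Snai1 and Snai2, -0.89 for Cdh1 and Snai1, -0.92 for Cdh1 and Cdh5, and -0.79 for Zeb1 and Vim. Cdh1 gave 0.63 with Cdh2, 0.41 with Twist1, 0.33 with Zeb1, -0.25 with Vim, -0.36 with Zeb2 and -0.51 with Snai2. Not all other pairs are given. For Cdh1, Cdh5 and Snai1, dopamine 1 and blank U were the opposite extremes, so those libraries weigh heavily in their coefficients. With 118 counts of Cdh1 in all, its coefficients carry counting error as well.

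Candidates were named genes whose mean FPKM reached 5 in either group (7557 for most members), and those most like each member by Pearson's r over the 6 libraries were Kctd21 (0.990) and Cybrd1 (0.989) for Cdh2, and Ube2a (0.983) and Lars2 (0.977) for Vim. For Snai2 they were Tbx15, a T-box transcription factor (0.997), and Tfpi, an inhibitor of coagulation (0.990). For Zeb1 they were Mkx, a homeobox factor of tendon (0.995), and Usp45 (0.993), for Zeb2 Prps2 and Pbrm1 (0.989 each), and for Cdh1 Rufy3 (0.994). Tbx15 had 4.93, 26.2 and 26.2 CPM in dopamine 1, 2 and 3, against 33.3, 40.0 and 26.1 CPM in blank 2, 3 and U, with dopamine 1 lowest as for Snai2. These are the best of many candidates over 6 points, and the coefficients are given as a description.

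Lists of neighbouring genes were read from the same fit. Beside the list splits, 51.7% of all genes tested had a log2 fold change above 0 with all libraries. The share of all genes below 0 was 52.1% without dopamine 1, 46.9% without blank U and 48.6% over the libraries numbered 2 and 3. By edgeR 0 members of the 7 pathway lists and 6 cell type lists were called, and DESeq2's calls held 0 of the 10 members. Of 165 list symbols, not all of which passed the filter, those with an unadjusted edgeR p under 0.05 were Klf8, Vcl, Tek, Pdgfra and Cd68. Each had an edgeR adjusted p of 0.9997, and 2.94% of all genes tested had an unadjusted p under 0.05. Dopamine values lay all above blank for Cd68 and all below for the others, as for 4.0% and 4.47% of all genes tested. Of 14 other transcription factors linked to EMT, 12 passed the filter, 1 had a positive and 11 a negative log2 fold change (median -0.22). The split was 4 and 8 both without dopamine 1 (median -0.15) and without blank U (median -0.08), and 8 and 4 over the 4 libraries numbered 2 and 3 (median 0.07). The highest by mean FPKM were Sox4, with 217, 141 and 120.03 CPM in dopamine 1, 2 and 3, against 174, 197 and 313 CPM in blank 2, 3 and U, and Sox9 (log2 fold change 0.53 ± 0.41). Klf8, a Krüppel-like repressor of Cdh1 in human cells, had 0.265 to 0.459 CPM in dopamine libraries and 0.752 to 1.12 CPM in blank libraries (-1.43 ± 0.49, edgeR unadjusted p = 0.0226), on 71 counts in all.

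Of 18 further cadherin genes, 14 passed the filter, of which 2 had a positive and 12 a negative log2 fold change, with a median of -0.73. The split was 2 and 12 without dopamine 1 (median -0.71), 4 and 10 without blank U (median -0.18) and 1 and 13 over the 4 libraries numbered 2 and 3 (median -0.30). No single gene had an unadjusted p under 0.05. Of all genes tested, 52.1%, 46.9% and 48.6% were below 0 in these settings, in that order. Cdh11, the cadherin of osteoblasts and mesenchyme, had 47.9, 139 and 153 CPM in dopamine 1, 2 and 3, against 254, 152 and 213 CPM in blank 2, 3 and U. Dopamine 3 lay just above blank 3, so the groups overlapped, and the log2 fold change was -0.87 ± 0.44. Cdh13, a cadherin anchored to the membrane by a glycolipid, had 81.0, 20.9 and 22.8 CPM in dopamine 1, 2 and 3, against 43.0, 45.9 and 159 CPM in blank 2, 3 and U (-0.99 ± 0.71). Cdh16, the kidney-specific cadherin, was at 0 in all libraries but blank U, which had 0.0959 CPM.

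Among 14 catenins and junction partners, 13 passed the filter, 2 with a positive and 11 with a negative log2 fold change (median -0.18). The split was 3 and 10 without dopamine 1 (median -0.32) and 5 and 8 without blank U (median -0.17). Ctnnb1 (β-catenin), which links cadherins to α-catenin, had 759.6 ± 48.5 CPM in dopamine and 809 ± 120.2 CPM in blank libraries, and Ctnna1 (α-catenin) had 422 ± 50.8 CPM in dopamine and 456 ± 40.6 CPM in blank libraries (SD, n = 3 each). Vcl (vinculin), which ties junctions to actin, had 166, 175 and 123 CPM in dopamine 1, 2 and 3, against 235, 332 and 263 CPM in blank 2, 3 and U. All 3 dopamine values lay below the blank ones (log2 fold change -0.84 ± 0.24, edgeR unadjusted p = 0.00941, adjusted p = 0.9997), a pattern held by 4.47% of all genes tested.

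Epithelial genes were unevenly detected. Of 32 genes, 17 passed the filter and 14 stayed under 1 CPM in every library, including Krt7, Krt8, Cldn4, Esrp1, Grhl2, Ovol1 and Rab25. Of the 17, 11 had a positive and 6 a negative log2 fold change (median 0.39). The split was 9 and 8 without dopamine 1 (median 0.27) and 11 and 6 without blank U (median 0.12). Spint2, a protease inhibitor of epithelia, had 36.6, 86.1 and 60.8 CPM in dopamine 1, 2 and 3, against 49.4, 35.5 and 31.8 CPM in blank 2, 3 and U. Dsp (desmoplakin), of desmosomes, had 25.5, 26.9 and 15.3 CPM in dopamine 1, 2 and 3, against 20.7, 86.6 and 31.5 CPM in blank 2, 3 and U.

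All 16 mesenchymal genes that EMT raises passed the filter, 4 with a positive and 12 with a negative log2 fold change (median -0.37, against -0.24 without dopamine 1, -0.25 without blank U and -0.21 over the 4 libraries numbered 2 and 3). Fn1 (fibronectin) had 2158, 3189.5 and 3881 CPM in dopamine 1, 2 and 3, against 4885, 11746 and 3820.2 CPM in blank 2, 3 and U. Dopamine 3 lay just above blank U (log2 fold change -1.15 ± 0.53, edgeR unadjusted p = 0.0653). Sparc, a matrix glycoprotein, had 2872 ± 257 CPM in dopamine and 3093 ± 370.1 CPM in blank libraries. Of 15 genes of TGF-β signalling, an inducer of EMT, 8 had a positive and 7 a negative log2 fold change (median 0.01, and -0.11 without blank U). Id1, a target of BMP and TGF-β signalling, had 219, 139 and 173 CPM in dopamine 1, 2 and 3, against 126, 149.8 and 105 CPM in blank 2, 3 and U, and Id3 had 233 ± 154 CPM in dopamine and 199 ± 121 CPM in blank libraries (SD, n = 3 each).

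**Figure D4:**
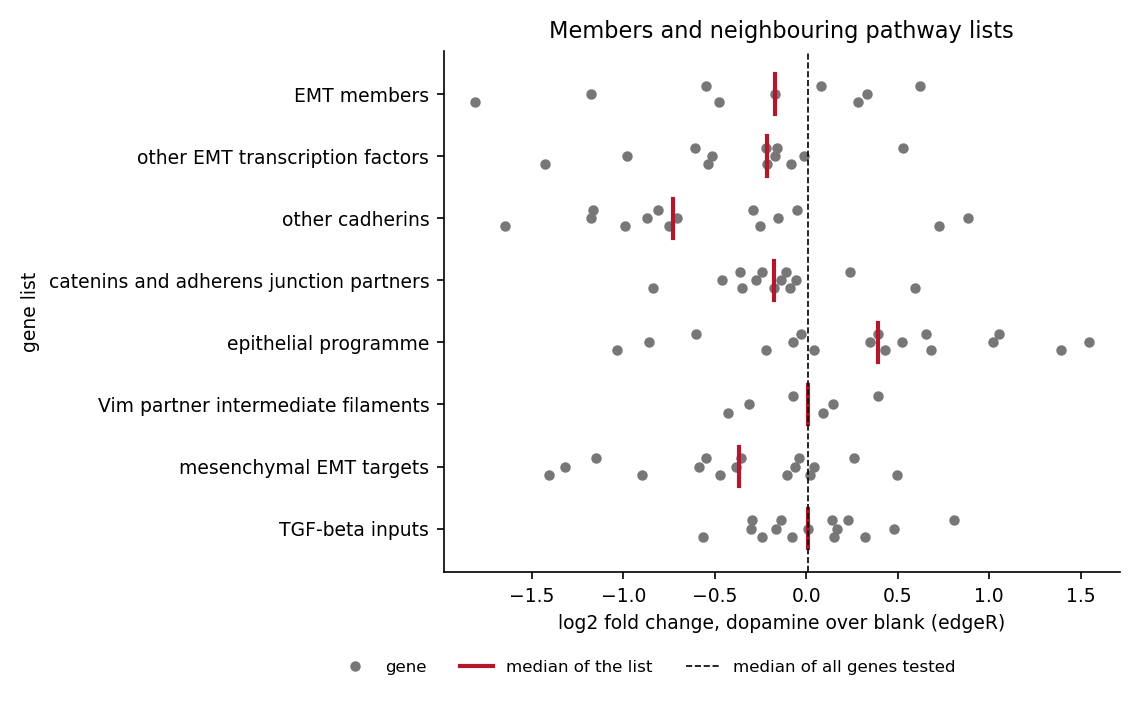
Log2 fold change, dopamine over blank (edgeR), of each tested gene of the members and of 7 neighbouring lists (grey points), with the median of each list (red bar) and of all genes tested (dashed line, 0.01). The other cadherins lie furthest to the left (median -0.73) and the epithelial programme furthest to the right (median 0.39), with wide spread in both.

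Marker lists of other cell types also varied between libraries. The summed level of 8 fibroblast markers was 634, 2193 and 3252 CPM in dopamine 1, 2 and 3, against 3403, 2338 and 1876 CPM in blank 2, 3 and U. Dopamine 1, lowest for Snai2, was also lowest for this sum and for Col1a1 (266 CPM there, 725 to 1257 elsewhere). Thy1 of the same list was not lowest there, with 222 CPM in dopamine 1 against 191 CPM in blank 2 and 127 CPM in blank U. Pdgfra, a receptor of mesenchymal cells, had 10.4 to 14.1 CPM in dopamine libraries and 20.9 to 24.5 CPM in blank libraries (edgeR unadjusted p = 0.00556, adjusted p = 0.9997). Such a separation below blank was held by 4.47% of all genes tested. The sum of 10 astrocyte markers was 1333, 5587 and 4719 CPM in dopamine 1, 2 and 3, against 6763, 2342 and 1323 CPM in blank 2, 3 and U. The sum of 15 renal tubule markers was 428, 181 and 141 CPM in dopamine 1, 2 and 3, against 176, 361 and 213 CPM in blank 2, 3 and U. It was highest in dopamine 1 and blank 3, the libraries with most Cdh1 and Epcam. The sum of neuron markers was also highest in these libraries (399 CPM in dopamine 1 and 417 CPM in blank 3). Lrp2, an endocytic receptor of proximal tubule and other epithelia, made up most of the renal tubule sum in dopamine 1 (384 CPM). Aqp1, a water channel, had 30.0, 78.7 and 29.6 CPM in dopamine 1, 2 and 3, against 14.5, 115.8 and 115.9 CPM in blank 2, 3 and U.

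Leukocyte markers Ptprc and Cd3e stayed under 1 CPM in all libraries, and Lyz2 had 0.588 to 38.3 CPM. Cd68, a lysosomal protein of macrophages and other cells, had 62.9 to 128 CPM in dopamine libraries and 19.7 to 55.0 CPM in blank libraries (log2 fold change 1.27 ± 0.43, edgeR unadjusted p = 0.0203, adjusted p = 0.9997). Such a separation above blank was held by 4.0% of all genes tested. Of 6 neuron markers, whose sum was 161 to 399 CPM in dopamine libraries and 141 to 417 CPM in blank libraries, Rbfox3 stayed under 1 CPM, Tubb3 ran from 9.11 to 46.5 CPM and Map2 from 71.2 to 324 CPM. The part of these cell type markers in the members' values was not tested.

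**Figure D5:**
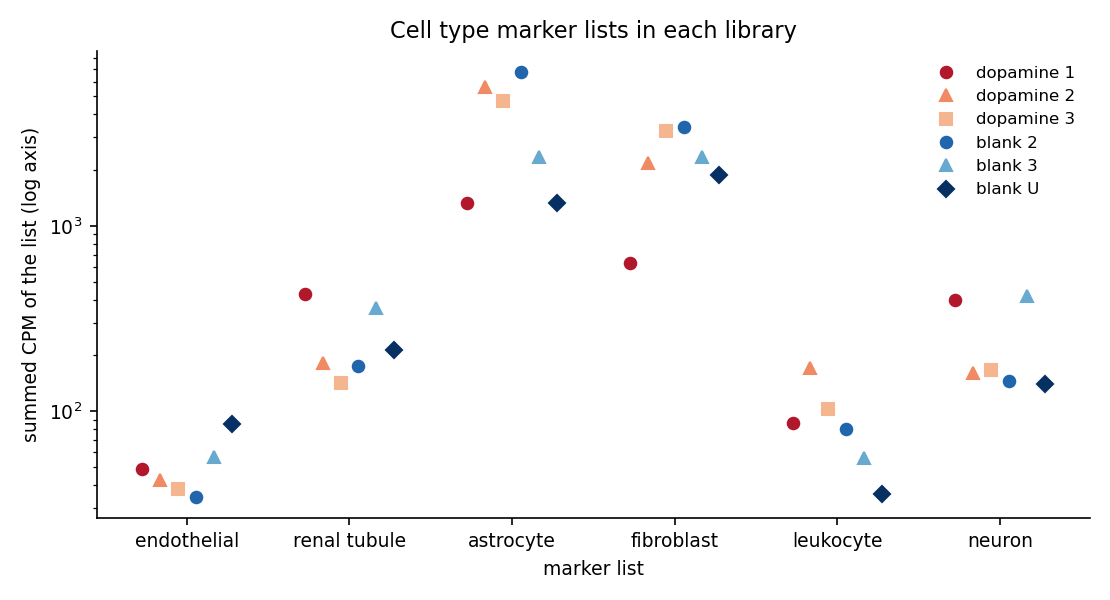
Summed CPM of 6 cell type marker lists (log axis) in dopamine 1, 2 and 3 (red and orange) and in blank 2, 3 and U (blue). Dopamine 1 lies apart below the others for fibroblast markers (634 CPM), dopamine 1 and blank U are lowest for astrocyte markers, and dopamine 1 and blank 3 are highest for renal tubule and neuron markers.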

How the data were processed

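RNA was prepared with a SMART-Seq HT kit, which amplifies full-length cDNA and does not mark strand, and read as 150 bp pairs, per the labels' protocols. The authors deposited raw read counts and FPKM per gene, per the file headers. The submitters' processing notes name build GRCm39. Aligner, counter and annotation were not given in the sources used here. Of the FPKM columns, 2 could not be tied to a sample and were not used. In 3 of the other 4, the deposited FPKM values equalled those recomputed from counts within 0.005 for all 56691 genes. In dopamine 1 they did so for 53639, with a largest difference of 20.7 FPKM, and the cause was not tested.

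Counts were fitted in R 4.3.3 with edgeR 4.0.16 (filterByExpr, TMM factors, quasi-likelihood test, 2-sided, no covariate), with Benjamini-Hochberg adjustment over all genes tested. DESeq2 1.42.0 and limma 3.58.1 with voom weights were alternatives. Standard errors are the log2 fold change divided by the root of F. CPM and FPKM in the text use TMM-scaled library sizes. The fits were tested on simulated counts. Members, lists and the naming rule were chosen with earlier results of these data known. Named were all members, the 2 genes most like each of 6 tested members, and in each list genes with an unadjusted p under 0.05 (up to 3) and the 2 of highest mean FPKM. Genes given only as examples of low levels, and those of the closing section, were chosen after their values were seen. Some genes that the rule names are not reported here. One list symbol was joined through a RefSeq synonym.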

Additional observations from a re-analysis of the deposited data

How the results depend on the processing

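No member was called under any alternative run (other normalization factors, no filter or an FPKM filter, DESeq2, limma voom, each library left out in turn, and the libraries numbered 2 and 3 with and without a replicate block). Over all genes edgeR and limma called 0 under each, and DESeq2 called 20. The log2 fold changes of Vim, Twist1, Cdh5, Snai2 and Zeb2 kept their sign under all 13 alternatives but shrank in some, to 0.08 for Vim without dopamine 3, 0.10 for Twist1 and -0.32 for Zeb2 without blank U, and -0.47 without and -0.39 with the replicate block for Cdh5 over the libraries numbered 2 and 3. That of Cdh1 turned to -0.13 without dopamine 1, and over the libraries numbered 2 and 3 to -0.57 without and -0.50 with the replicate block. Cdh2 turned to -0.055 when blank U was left out, and to -0.068 without and -0.066 with the block. Snai1 turned to 0.037 when blank U was left out, 0.41 without and 0.34 with the block, and Zeb1 to 0.039 without dopamine 3. The cause was not tested. With 1 library left out, the value ran from -0.13 to 1.42 for Cdh1, -0.055 to 0.19 for Cdh2, -1.20 to 0.037 for Snai1, -0.41 to 0.039 for Zeb1, -2.43 to -0.96 for Cdh5, -1.58 to -0.65 for Snai2, 0.08 to 0.52 for Vim, 0.10 to 0.46 for Twist1 and -0.63 to -0.32 for Zeb2. Deviations of same-numbered libraries correlated at -0.09 across genes and no label pairs them. The replicate block gave 0 called genes, with 1122 at an unadjusted p under 0.05 against 1403 without it. List counts without single libraries were added after seeing the data. Low counts limit Cdh1 (118 in all) and Epcam, whose values rest on few reads.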

Other observations

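Several genes of the neighbouring lists were uneven between libraries of the same group, and they were chosen here after their values were seen. Hmga2, a chromatin protein of embryonic and mesenchymal cells, had 318, 21.6 and 25.9 CPM in dopamine 1, 2 and 3, against 34.7, 53.3 and 633 CPM in blank 2, 3 and U. Cd44, a hyaluronan receptor, had 2316, 569.7 and 496 CPM in dopamine 1, 2 and 3, against 507, 642 and 1248 CPM in blank 2, 3 and U. Both were highest in dopamine 1 and blank U, as was Smad3, a mediator of TGF-β signalling, with 479 CPM in dopamine 1 and 209 CPM in blank U, against 98.5 to 151 CPM in the other 4. None of these passed the edgeR threshold between dopamine and blank (log2 fold changes -0.98 ± 1.40, 0.50 ± 0.67 and 0.81 ± 0.60).

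Col3a1, a fibrillar collagen, and Dcn (decorin) were low in dopamine 1. Col3a1 had 2.06, 179 and 452 CPM in dopamine 1, 2 and 3, against 476, 15.9 and 157 CPM in blank 2, 3 and U. Dcn had 4.93, 364 and 262 CPM in dopamine 1, 2 and 3, against 346, 148 and 54.0 CPM in blank 2, 3 and U.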
